A study of Mus musculus with 6 samples.

Results

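The replacement histone variant genes were taken as H2afx, H2afy, H2afy2, H2afj, H3f3a, H3f3b, Cenpa, H1f0 and H1fx, that is, histone variant genes other than those of H2A.Z. Their members in the ATAC-seq table are the intervals that overlap the body of one of these genes or lie within 1 kb of one of its transcription start sites (TSS), by the GENCODE vM1 annotation of mm9. This rule found 19 of 39768 intervals, at 7 of the 9 genes. H3f3a had 6, H2afy and H3f3b had 3 each, H2afx, Cenpa and H1f0 had 2 each, and H2afj had 1. No interval was found for H2afy2 or H1fx.

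The bulk of new histones is made during DNA replication from clustered genes that are shut outside S phase. Replacement variants come from solitary genes that stay active outside S phase and so can supply histones to cells that no longer divide, such as muscle fibres. H3f3a and H3f3b encode the same protein, H3.3, which the HIRA and DAXX-ATRX chaperones place at active genes and at heterochromatin. H2A.X is phosphorylated around DNA breaks, macroH2A carries a large globular domain beside its histone fold and is abundant on the inactive X chromosome, CENP-A marks centromeres, and H1.0 is a linker histone that accumulates in differentiated cells. How accessible the promoters of these genes are where H2A.Z, the replacement variant of H2A most typical of promoters, has been deleted is the question that the 2 groups of libraries allow to be asked.

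ATAC-seq counts the fragment ends that the Tn5 transposase makes in exposed DNA. Libraries were made from 50000 nuclei each of C57BL/6 mice aged 7 weeks, from the tibialis anterior by the labels and from hind limb muscles by the study methods. Both groups carried floxed alleles of both H2A.Z genes, H2A.Z-1 flox/flox and H2A.Z-2 flox/flox. The 3 CTL libraries came from mice without Cre, and the 3 libraries labelled dKO (dKO-labelled libraries, for H2A.Z double KO) came from mice that were HSA CRE +. The HSA promoter drives Cre in skeletal muscle fibres, so nuclei of other cells in the muscle keep both genes, and nuclei were not sorted by cell type. The labels do not say that each library is a separate mouse, and p-values measure the spread between these libraries.

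Counts in all intervals summed to 3520008 to 6117245 per library. In H2afz, the gene of H2A.Z-1, the floxed exons lie on chromosome 3 from 137528097 to 137529104. The 2 intervals that overlap this span were summed whole, and fragment ends outside the intervals of the table were not counted. Their sum was 12.4 ± 2.83 CPM in CTL against 11.3 ± 1.28 CPM in the dKO-labelled libraries (SD, n = 3 each, counts scaled to TMM-adjusted library totals). An exact permutation test gave a two-sided p = 0.6, where the smallest possible is 0.1. These 2 intervals did not separate the groups, and they do not measure the deleted segment alone. Both intervals of H2afv, the gene of H2A.Z-2, lie at its promoter and outside its floxed exons, so they give no such check, and directions given for the dKO-labelled libraries rest on their labels. Other measurements of the deletion by the study were not analysed here. Replicate 1 of these libraries stood apart, with 77.5% of its counts in intervals within 1 kb of a TSS, against 73.7% and 74.0% in replicates 2 and 3 and 75.1% to 75.4% in CTL. The comparisons between groups at the replacement variants are therefore also given without it.

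The promoters of H3f3b, H3f3a, H2afj and Cenpa are printed here because they hold the clearest sequence features of the group, matches to the CCAAT box bound by NF-Y, a factor common at histone promoters. The sequences are from RefSeq (GRCm38.p6), which had a promoter for 8 of the 9 genes under current or older symbols, all but H2afx. Each runs 5′ to 3′ on the strand of the gene over 300 bases, with CCAAT on either strand (ATTGG on the other strand) and TATAAA in capitals. They lie at chr11:116024455-116024754 on the minus strand, chr1:180813556-180813855 on the minus strand, chr6:136807998-136808297 on the plus strand and chr5:30666636-30666935 on the plus strand, in that order.
H3f3b: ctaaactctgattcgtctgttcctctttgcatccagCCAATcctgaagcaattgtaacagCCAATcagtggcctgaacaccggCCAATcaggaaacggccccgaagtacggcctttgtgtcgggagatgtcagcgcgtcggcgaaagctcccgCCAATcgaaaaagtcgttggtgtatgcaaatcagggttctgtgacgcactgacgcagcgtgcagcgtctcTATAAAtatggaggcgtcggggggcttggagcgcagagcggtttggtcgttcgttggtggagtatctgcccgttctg
H3f3a: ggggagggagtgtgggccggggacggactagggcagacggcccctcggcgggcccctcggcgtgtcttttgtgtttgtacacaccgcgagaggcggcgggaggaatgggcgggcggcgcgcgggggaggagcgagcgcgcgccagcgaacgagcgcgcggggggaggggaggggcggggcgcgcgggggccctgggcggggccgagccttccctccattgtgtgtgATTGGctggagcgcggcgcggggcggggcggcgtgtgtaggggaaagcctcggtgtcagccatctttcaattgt
H2afj: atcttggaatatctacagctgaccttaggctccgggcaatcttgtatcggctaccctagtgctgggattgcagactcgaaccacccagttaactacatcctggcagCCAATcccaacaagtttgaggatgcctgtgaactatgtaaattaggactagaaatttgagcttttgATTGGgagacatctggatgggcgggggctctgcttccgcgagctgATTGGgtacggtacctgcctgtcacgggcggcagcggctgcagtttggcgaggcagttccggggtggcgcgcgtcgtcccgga
Cenpa: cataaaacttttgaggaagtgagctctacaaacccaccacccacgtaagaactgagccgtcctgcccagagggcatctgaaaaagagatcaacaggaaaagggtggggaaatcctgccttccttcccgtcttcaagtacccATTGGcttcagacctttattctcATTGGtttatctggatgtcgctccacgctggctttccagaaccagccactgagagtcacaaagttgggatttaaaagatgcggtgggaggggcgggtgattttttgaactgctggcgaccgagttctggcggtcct

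H3f3b held 4 CCAAT matches, all on the strand of the gene, whose first bases lie at -214, -190, -167 and -97 from the RefSeq start (the start base is 0). It also held the only TATAAA of the 8 promoters, at -27. H2afj held 3 CCAAT matches, Cenpa 2, H3f3a and H2afy2 1 each, and H2afy, H1f0 and H1fx none. Of all 32851 promoters of this length, 37.4% held at least 1 match, 3.37% at least 3 and 1.06% at least 4, and 13.6% held TATAAA. The Sp1 box, GGGCGG, was found in 6 of the 8 (35.7% of all promoters) and 6 times in H3f3a alone. AAACACA, an element of H1 promoters, was found only in H3f3a (7.18% of all promoters), and neither TGACGT (7.51%) nor CACGTG (7.15%) was found in these windows. Both strands were searched for each motif. A match describes the letters and not the binding of a factor.

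Each of the printed sequences matched mm9 at exactly 1 place, so that the deposited intervals could be set on the RefSeq starts. Of the 300 bases, 300 lie inside the intervals of H3f3b, 287 inside that of H2afj, 280 inside those of Cenpa and 252 inside those of H3f3a. All 10 CCAAT matches of the members that have an interval fell inside one. The same windows of H2afy and H1f0 had 212 and 0 bases inside intervals. The intervals of H1f0 lie from 139 to 364 bp and from 444 to 519 bp downstream of its RefSeq start, which lies at -510 bp relative to the start in GENCODE vM1, where H1f0 is annotated as a pseudogene of 538 bp.

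**Figure D1:**
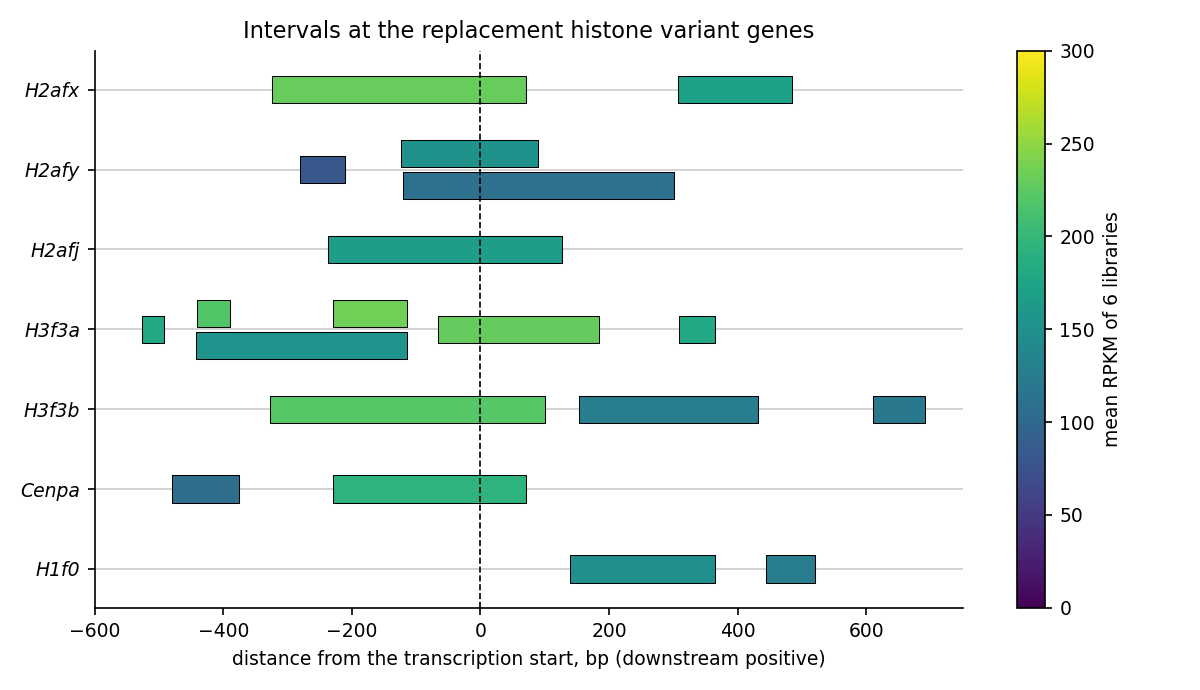
Intervals of the 7 genes by distance from the transcription start in bp (RefSeq start set on mm9, GENCODE vM1 start for H2afx), coloured by mean RPKM of 6 libraries; boxes that overlap are drawn above and below the line. An interval covers the start in all genes except H1f0, and H3f3a has the most intervals, 6.

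All 19 intervals lie within 1 kb of an annotated TSS, and none lies elsewhere in a gene body. H3f3a, on chromosome 1 from 182730963 to 182744074 (minus strand), had its intervals spread from -526 to 363 bp relative to the RefSeq start. All 6 also lie within 1 kb of a TSS of Gm16067, a neighbouring gene, so their counts cannot be assigned to either gene alone. The widest, Peak_2213, holds Peak_2214 and Peak_2215 whole (114 and 52 bp), and in H2afy Peak_29309 shares 210 bp with Peak_29310, so fragment ends in the shared parts count in both. The authors list the wide interval of each overlap as dKO only and the narrow ones as CTL only. Over the 19 intervals they list 6 as common to both groups, 7 as dKO only and 6 as CTL only. Of all intervals 38.7%, 43.4% and 17.9% are listed in these ways. Member intervals listed for a single group held counts in all 6 libraries, so the listing does not mean accessibility in that group alone. In Peak_2213, listed as dKO only, CTL held 303, 263 and 187 counts and the dKO-labelled libraries 400, 172 and 210.

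H2afy2, which encodes macroH2A2, and H1fx, which encodes the linker histone H1x, had no interval. The nearest ones lie 68.4 and 59.9 kb from their TSSs. Their values are not measured, since fragment ends outside the intervals of the table were not analysed here, and the methods of the study name more union intervals than this table has rows. None of 7 annotated germline variants (H1foo, H1fnt, Hils1, Hist1h1t, Hist1h2ba, Hist1h2aa and H2afb1), which are known from oocytes or testis, had an interval either. Of all 37310 annotated genes 13734 had at least 1.

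Of the H3.3 genes, H3f3a had its highest counts in Peak_2212, on chromosome 1 from 182743552 to 182743802, of which 162 bp are exon and 89 bp intron. In CTL it held 370, 266 and 207 counts, and in the dKO-labelled libraries 385, 227 and 266 (values of a group are given here and further on in the order of the replicate numbers). As RPKM, the count per kilobase of the interval scaled to the counts in all intervals of the library, CTL had 235 ± 6.03 and the dKO-labelled libraries 224 ± 33.1 (SD, n = 3 each). The groups overlapped, with dKO replicate 1 highest and replicates 2 and 3 lowest of all 6. The log2 fold change was -0.064 (standard error 0.13). Summed over the 6 intervals, H3f3a held 162, 174 and 162 CPM in CTL and 213, 128 and 142 CPM in the dKO-labelled libraries, so that these libraries lay on both sides of CTL.

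H3f3b lies on chromosome 11 from 115883226 to 115889276 (minus strand), and most of its counts were in Peak_26587, from 115885719 to 115886146, with 314 bp of exon and 114 bp of intron. The RefSeq start inside this interval is 3458 bp downstream of the outermost annotated one. The interval held 595, 458 and 294 counts in CTL and 505, 461 and 501 counts in the dKO-labelled libraries, or 218 ± 19.8 against 224 ± 19.7 RPKM (SD, n = 3 each). The log2 fold change was 0.030 (standard error 0.11). The sum over its 3 intervals was 152, 141 and 117 CPM in CTL and 143, 142 and 141 CPM in the dKO-labelled libraries. For H3f3b it was thus CTL replicate 3 that lay apart, below the other 5 libraries.

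H2afx, the gene of H2A.X, lies on the plus strand of chromosome 9, from 44142798 to 44144154. Peak_19859, from 44142474 to 44142868, covers its start with 324 bp outside the gene and 71 bp of exon, and Peak_19860 lies in the exon from 44143105 to 44143282. Peak_19859 held 614, 449 and 329 counts in CTL and 491, 368 and 451 counts in the dKO-labelled libraries. As RPKM these were 254, 246 and 237 in CTL and 212, 205 and 227 in the dKO-labelled libraries. Every CTL value lay above every value of the other group, which was so for no other of the 19 intervals. Its log2 fold change was -0.20 (standard error 0.11), or 87.3% of the CTL level with a 95% confidence interval of 75.1% to 102%, and its p of 0.077 was the lowest of the 19 (adjusted p = 0.972 by edgeR). Among all intervals the groups did not overlap with the dKO-labelled libraries lower in 5.63%, and with them higher in 5.22%, so 1 such interval among 19 is near the background. Peak_19860 did not separate the groups, with 172 ± 17.3 RPKM in CTL and 168 ± 46.5 in the dKO-labelled libraries (SD, n = 3 each).

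H2afy, which encodes macroH2A1, lies on chromosome 13 from 56174980 to 56237722 (minus strand), with 7 annotated TSSs. Peak_29309, from 56236611 to 56237032, held 278, 222 and 181 counts in CTL and 323, 176 and 204 counts in the dKO-labelled libraries. This was 114 ± 7.11 RPKM against 106 ± 21.1 RPKM (SD, n = 3 each), with dKO replicate 1 above CTL and replicates 2 and 3 below. The log2 fold change was -0.095 (standard error 0.15). H2afj, whose product H2A.J is known to accumulate in senescent cells, lies on the plus strand of chromosome 6 from 136756769 to 136758595. Its interval, Peak_14200, from 136756532 to 136756895, held 390, 285 and 223 counts in CTL and 308, 294 and 288 counts in the dKO-labelled libraries. As RPKM this was 173 ± 3.20 against 159.7 ± 16.8 (SD, n = 3 each), with a log2 fold change of -0.12 (standard error 0.12), and here dKO replicate 1 was the lowest library and replicate 2 the highest.

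Cenpa lies on the plus strand of chromosome 5 from 30969150 to 30977200. Its product is loaded on centromeres of dividing cells after mitosis, and its promoter was among the called intervals in these nuclei. Peak_10125, from 30969029 to 30969329, held 341, 266 and 202 counts in CTL and 321, 276 and 321 counts in the dKO-labelled libraries, or 189 ± 3.23 against 198 ± 15.6 RPKM (SD, n = 3 each). The log2 fold change was 0.069 (standard error 0.12). The upstream interval, Peak_10124, had one of -0.18 (standard error 0.22). H1f0, on the plus strand of chromosome 15 from 78859152 to 78859689, had 197, 167 and 116 counts in CTL and 210, 144 and 166 counts in the dKO-labelled libraries in Peak_32380, from 78858781 to 78859006. As RPKM this was 149 ± 9.09 against 148 ± 9.23 (SD, n = 3 each), and the groups overlapped.

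The genes were ordered by the RPKM of the interval with the most counts in each, with the genes of H2A.Z as reference. H2afv had a median of 243 over 6 libraries (range 211 to 264), followed by H2afx with 232 (205 to 254), H3f3a with 232 (199 to 261) and H3f3b with 229 (195 to 237). H2afz had 201 (178 to 253), Cenpa 191 (182 to 212), H2afj 172 (144 to 178), H1f0 146 (140.0 to 159.6) and H2afy 111 (91.7 to 130.3). H2afx and H3f3a stood at the 91.4 and 91.3 percentiles of the intervals within 1 kb of a TSS, Cenpa at 82.6, H1f0 at 62.0 and H2afy at 32.0. Neighbours in this order were compared within libraries by an exact sign-flip permutation test over 8 pairs, in which the smallest possible p is 0.03125. Unless most of the 8 pairs reach that value, no adjusted p can fall under 0.05. The pairs were also taken from an order made with these same libraries, so the test describes that order and is no independent check. Cenpa lay above H2afj 1.17-fold and H1f0 above H2afy 1.36-fold in 6 of 6 libraries (exact permutation p = 0.03125 for each, 0.125 after Benjamini-Hochberg adjustment). The other 6 pairs had an adjusted p of 0.333 to 0.969 in these exact permutation tests, so no pair passed 0.05. The last place of H2afy rests on the wide Peak_29309. Peak_29310, which lies almost whole inside it, had a mean of 152.5 RPKM (percentile 64.3), above the mean of 149 at H1f0, so the order of these genes turns with the choice between overlapping intervals. Width and base composition differ between intervals, so this order compares promoter intervals, not expression.

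**Figure D2:**
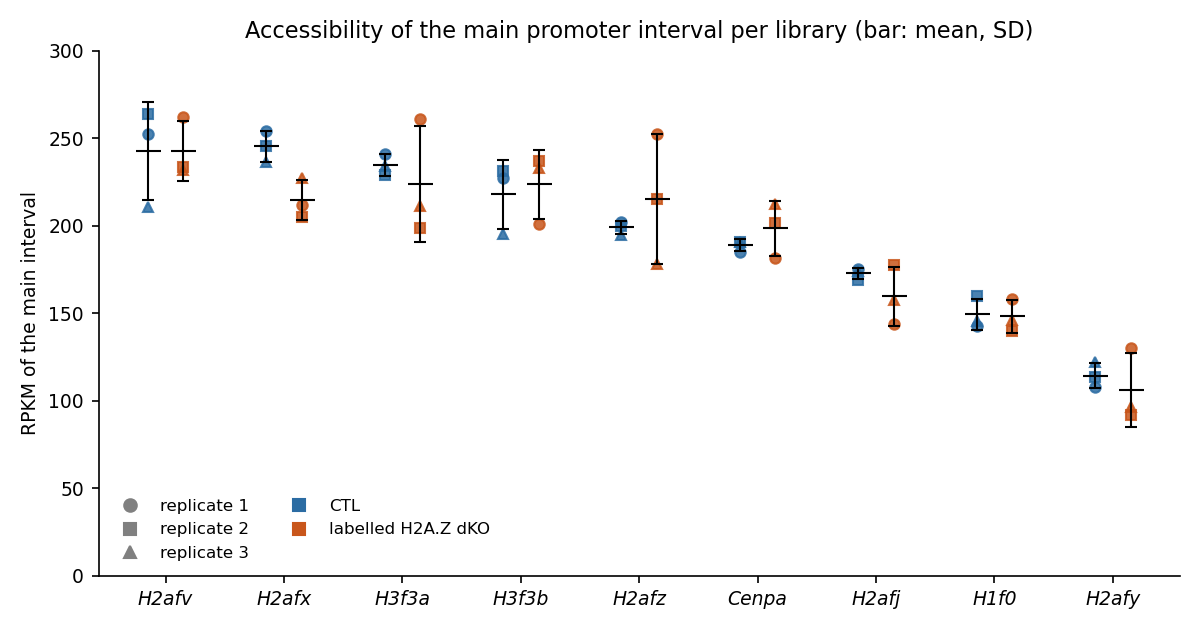
RPKM of the interval with the most counts in each of 9 genes, by library; blue is CTL and orange the dKO-labelled libraries, shapes mark replicate numbers, and bars are mean and SD of 3 libraries. Groups do not overlap at H2afx alone, where CTL lies between 237 and 254 and the other group between 205 and 227.

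Between groups, 0 of the 19 intervals passed an adjusted p of 0.05 (edgeR, adjusted over all intervals by Benjamini-Hochberg), against 0% of all intervals. At an unadjusted p under 0.05 there were also 0 of 19, against 4.95% of all intervals, and DESeq2 gave 0 at either threshold. The dKO-labelled libraries were higher in 7 intervals and lower in 12, with a median log2 fold change of -0.017, against 0.012 over all intervals and 0.011 over those within 1 kb of a TSS. Single values ran from -0.20 at Peak_19859 of H2afx to 0.35 at Peak_2211 of H3f3a (standard error 0.24), a narrow interval of 55 bp with 25 to 81 counts. Adjusted p-values from edgeR ran from 0.972 to 0.999.

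The confidence intervals were then set against fixed folds. The 95% confidence bounds stayed within a 2-fold change on either side at 19 of 19 intervals. This was so at 91.4% of all intervals and 96.2% of those within 1 kb of a TSS. At 13 of 19 (68.4%) the bounds stayed within a 1.5-fold change, against 49.6% of all intervals and 65.5% of those within 1 kb of a TSS. With counts summed over the intervals of each gene and fitted over all 13734 genes, 7 of 7 genes lay within a 1.5-fold change (84.2% of all genes). The bounds for these 7 ran from 76.9% of the CTL level, at H2afy, to 122%, at H1f0. Without dKO replicate 1 fewer single intervals stayed within these folds. Then 18 of 19 stayed within a 2-fold change (89.3% of all intervals) and 10 of 19 within a 1.5-fold change (49.7% of all intervals), and the exception at 2-fold was Peak_2215 of H3f3a, with a lower bound of 44.3% of the CTL level. The 7 gene sums stayed within a 1.5-fold change (84.6% of all genes), with bounds from 71.7% at H2afy to 124% at Cenpa.

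For the gene sums, 0 of 7 had an adjusted p under 0.05 and 0 had an unadjusted p under 0.05 (edgeR; 0% and 4.32% of all genes), and DESeq2 gave 0 for both. The groups overlapped in all 7, whereas they did not in 10.7% of all genes. Log2 fold changes of the sums were -0.15 for H2afx (standard error 0.096), -0.11 for H2afj, -0.10 for H2afy, -0.038 for H3f3a, 0.027 for H1f0, 0.037 for Cenpa and 0.056 for H3f3b, with adjusted p-values of 0.969 to 0.993 by edgeR. The pair of H3.3 genes thus had values on either side of 0. For H2afz and H2afv the sums gave 0.10 and 0.034 (standard errors 0.11 and 0.11).

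**Figure D3:**
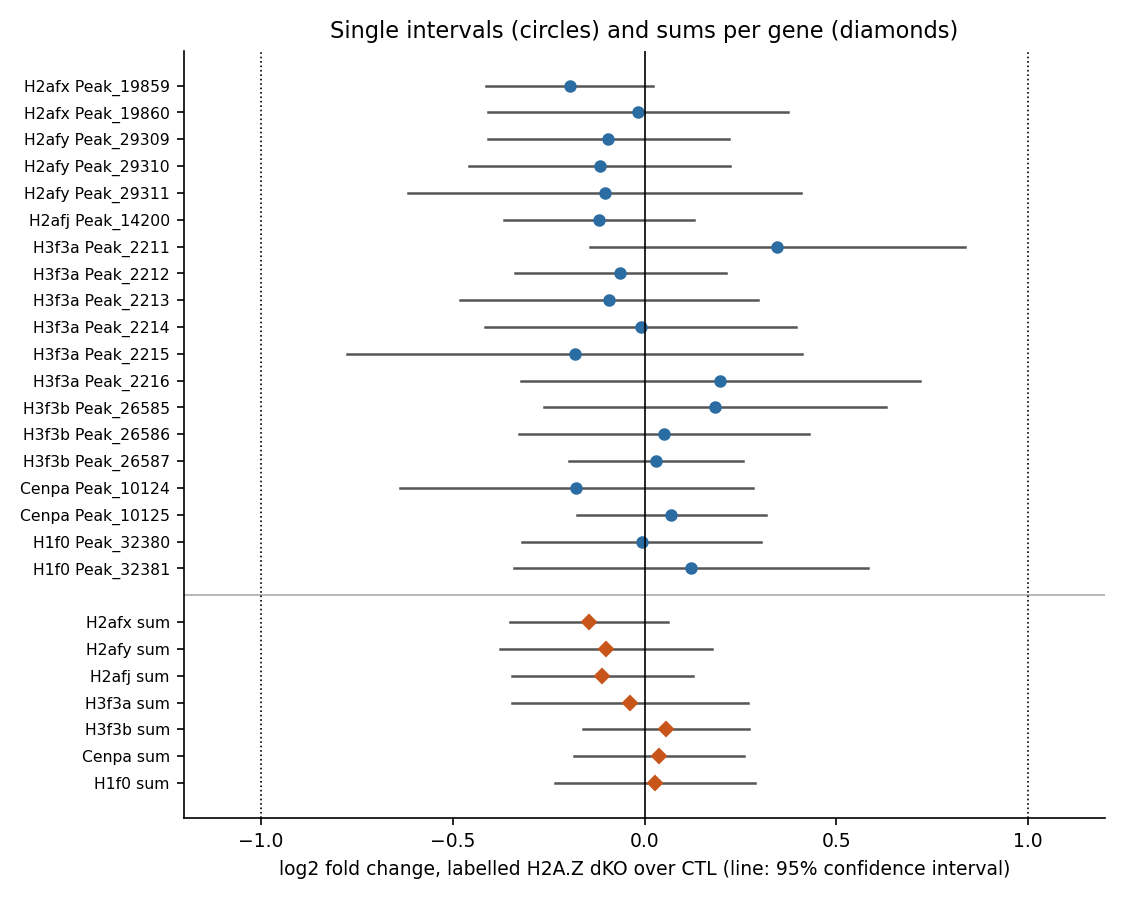
Log2 fold change of the dKO-labelled libraries over CTL for the 19 intervals (circles) and the 7 gene sums (diamonds), with 95% confidence intervals as lines and a 2-fold change as dotted lines. All lines cross 0 and none reaches a 2-fold change.

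The dKO-labelled libraries differed among themselves at these promoters. Relative to the mean of 6 libraries, 14 of the 19 intervals were above it in dKO replicate 1, 6 in replicate 2 and 5 in replicate 3, and in CTL 12, 14 and 9 were. By this count replicates 2 and 3 lay below CTL and replicate 1 within its range. For the sum of H3f3a the log2 deviations were 0.40, -0.34 and -0.18 in these replicates, and 0.0079, 0.11 and 0.0051 in CTL. H2afy also had its highest value in replicate 1, with 0.27, -0.29 and -0.18, as did H1f0, with 0.17, -0.067 and -0.079. At H2afx, H2afj, Cenpa and H3f3b replicate 1 was not the highest library. The share of a library's counts that fell in the 19 intervals was 0.0729% in replicate 1, 0.0629% and 0.0651% in replicates 2 and 3, and 0.0670% to 0.0709% in CTL.

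Without replicate 1, the dKO-labelled libraries were lower in 14 of 19 intervals (49.7% of all intervals), with a median log2 fold change of -0.12 against 0.0015 over all intervals. Then 4 of 19 had an unadjusted p under 0.05 by edgeR, against 7.95% of all intervals. They were Peak_2213 and Peak_2215 of H3f3a, the latter inside the former, with log2 fold changes of -0.43 and -0.67, Peak_29309 of H2afy, with -0.30, and Peak_19859 of H2afx, with -0.21. Their adjusted p-values by edgeR ran from 0.430 to 0.586. Shares over intervals within 1 kb of a TSS, where all 19 lie, are not given without replicate 1. Of the gene sums 3 of 7 had an unadjusted p under 0.05, against 7.24% of all genes, with log2 fold changes of -0.28 for H3f3a (adjusted p = 0.420 by edgeR), -0.27 for H2afy and -0.21 for H2afx. None passed the adjustment. H3f3b and Cenpa remained above 0, at 0.059 and 0.10. The sums of H3f3a and H2afy count ends in overlapping intervals more than once. Sums free of these overlaps were not fitted without replicate 1. With any other single library left out, 0 of 19 intervals and 0 of 7 sums had an unadjusted p under 0.05 (edgeR).

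**Figure D4:**
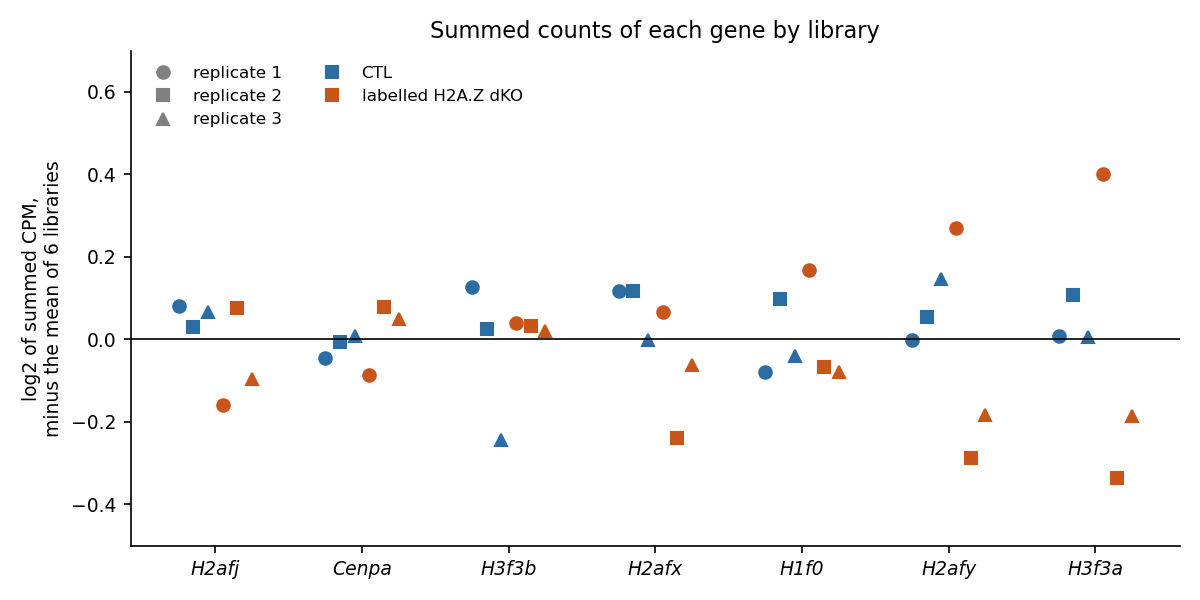
Log2 of the summed CPM of each gene in each library minus the mean of 6 libraries, with genes ordered by the value of dKO replicate 1 (orange circle). That library is lowest at H2afj, with -0.16, and highest at H3f3a, with 0.40, where replicates 2 and 3 are lowest.

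Base composition moved with these deviations. GC content of the 19 intervals ran from 53.2% to 78.7%, with a median of 69.7%, against 60.0% for all intervals and 65.3% for those within 1 kb of a TSS. The observed over expected ratio of CpG had a median of 0.952, against 0.494 and 0.764. Across the 19 intervals, which are not independent and in part overlap, Pearson's r of a library's deviation with GC content was 0.82 in dKO replicate 1, -0.63 in replicate 2 and -0.36 in replicate 3, and -0.23, 0.28 and -0.095 in CTL. Over all 39768 intervals r was 0.37, -0.25 and -0.18 in the dKO-labelled libraries. The main intervals of H3f3b, Cenpa and H2afj, at 53.7%, 53.2% and 59.1% GC, are among those poorest in GC, and those of H3f3a and H2afy, at 69.7% and 78.7%, are richer. The main interval of H2afx has 57.0% GC and that of H1f0 75.7%, and without replicate 1 their log2 fold changes were -0.21 and -0.082. With offsets fitted on GC content, tried after seeing the data, the median log2 fold change of the 19 was -0.060 and 0 had an adjusted p under 0.05 (edgeR). Of the main intervals, these offsets moved Peak_29309 of H2afy from -0.095 to -0.16 and Peak_32380 of H1f0 from -0.0073 to -0.055. The part of GC content in the values without replicate 1 was not tested.

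Genes of chaperones and deposition factors of these variants were counted by the same rule. Of 20 annotated, 18 had an interval, all but Atrx and Hjurp, which encodes the chaperone of CENP-A. In the dKO-labelled libraries 10 were higher and 8 lower, where 51.3% of all genes were higher. Of the 18, 0 had an adjusted and 0 an unadjusted p under 0.05 (edgeR), against 0% and 4.32% of all genes. The median log2 fold change of the 18 was 0.028, against 0.0047 over all genes. Dek, an H3.3 chaperone, had the largest positive value, 0.17 (standard error 0.10), and Oip5, a subunit of the complex that prepares centromeres for CENP-A, the largest negative one, -0.23 (standard error 0.15). Their adjusted p-values were 0.969 each by edgeR.

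The cell types in the nuclei were read from marker genes. Of 10 muscle fibre markers 8 had an interval, all but Myh2 and Mylpf, and their summed level was 403 to 532 CPM in CTL and 445 to 569 CPM in the dKO-labelled libraries. All 6 endothelial markers had one, and all 6 were lower in the dKO-labelled libraries (median log2 fold change -0.20), with 2 at an unadjusted and 0 at an adjusted p under 0.05 (edgeR). Of all genes 51.3% were higher in these libraries and 4.32% had an unadjusted p under 0.05. The summed level of the endothelial markers was 268 to 304 CPM in CTL and 235 to 255 CPM in the other group. Of macrophage, fibroblast and satellite cell markers 1 of 5, 3 of 5 and 1 of 4 had an interval, and of the macrophage markers Emr1, Cd68, Mrc1 and Ptprc had none. Muscle fibre markers were higher in 5 and lower in 3 and fibroblast markers higher in 2 and lower in 1, with 0 at an unadjusted p under 0.05 (edgeR). On the log2 scale the difference was -0.65 for Csf1r of macrophages (standard error 0.32) and 0.30 for Pax7 of satellite cells (standard error 0.24), and at Pax7 the groups did not overlap. Nor did they at the endothelial markers Kdr and Flt1 or at the H3.3 chaperone Asf1a, which were lower in the dKO-labelled libraries (10.7% of all genes in either direction). The part of endothelial nuclei in the values at the replacement variants was not tested. In bulk nuclei, fewer nuclei of a type and lower accessibility in each cannot be told apart.

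H3f3a had the highest summed counts of the 7 genes, with a mean of 814.5 per library against 697 for H3f3b. Without Peak_2214 and Peak_2215, whose ends also count in Peak_2213, its mean was 624 and H3f3b had the highest sum. By the rule on sums as counted, the genes most like H3f3a were sought by Pearson's r of log2 CPM over the 6 libraries, among 11347 genes with a mean summed count of at least 100. Gm16067, at r = 1, has the same 6 intervals and so the same counts. Next came Slc35f5, on chromosome 1, and Tnrc6c, on chromosome 11, with r of 0.994 and 0.991 and no shared interval. These values describe 6 libraries, and the points share the depth and composition of each library.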

How the data were processed

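Counts of ATAC-seq fragment ends were analysed in 6 libraries (3 CTL, 3 labelled H2A.Z dKO). The counts per interval were deposited by the authors without normalization. They had trimmed with Trimmomatic, aligned to mm9 with Bowtie2, removed duplicates with Picard, shifted ends for Tn5 and called peaks with MACS2. The members and gene lists were chosen with earlier results of these data known.

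Intervals were assigned to genes with GENCODE vM1, with coordinates taken as written, since whether starts count from 0 or 1 is not stated. Named are all 9 genes, the interval with the highest mean count of each, intervals with an unadjusted p under 0.05, the extreme chaperones and the 3 genes most like the one with the highest sum. Other intervals, marker genes and Asf1a were named after their values were seen. Counts were compared over all 39768 intervals, and sums over 13734 genes, with edgeR 4.0.16 in R 4.3.3 (TMM factors 0.971 to 1.02, robust quasi-likelihood, no filter, no block, biological coefficient of variation 0.126). Columns of the authors' DESeq2 comparison (fold changes, errors, p-values) were not used. Alternatives were DESeq2 1.42.0, voom of limma 3.58.1, other scalings, a filter, a replicate block, other assignments and each library left out. Python 3.11.15 and pandas 2.3.3 were used for tables. PCR copies left in the counts are not covered by the confidence intervals.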

Additional observations from a re-analysis of the deposited data

How the results depend on the processing

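Every alternative gave 0 calls among the 19 intervals and the 7 gene sums, and the lowest adjusted p over all of them was 0.420, without dKO replicate 1. For the intervals, the median log2 fold change ran from -0.060 to -0.013 over other tools, scalings, filters and assignments, and from -0.12 (without dKO replicate 1) to 0.046 (without replicate 2) with single libraries left out. With the replicate number as a block it was -0.040 with 0 calls. Same-numbered libraries had correlations of deviations of -0.099, -0.054 and -0.033, and the other pairs of -0.053 to 0.091. Deviations were taken from the mean of each group of 3, so these values cannot settle whether the numbers mark a pairing. Of 217 alternative values of the 7 gene sums and of the interval with the most counts of each gene 14 changed sign, all with a library left out and none called. With libraries left out, log2 fold changes ran from -0.28 to 0.094 for the sum of H3f3a, -0.028 to 0.14 for H3f3b, -0.0031 to 0.10 for Cenpa, -0.045 to 0.079 for H1f0, -0.30 to 0.0084 for Peak_29309, -0.22 to 0.023 for Peak_2212, -0.038 to 0.078 for Peak_26587 and -0.082 to 0.046 for Peak_32380. Of the other intervals given with values, sign also changed at Peak_2213 (-0.43 to 0.072), Peak_2215 (-0.67 to 0.046) and Peak_19860 (-0.29 to 0.14), and at the sums of H2afz (-0.026 to 0.21) and H2afv (-0.062 to 0.093). Without a change of sign, values ran from -0.27 to -0.0050 for the sum of H2afy, -0.19 to -0.048 for H2afj, -0.21 to -0.078 for H2afx, 0.12 to 0.50 for Peak_2211, -0.39 to -0.079 for Peak_10124, 0.016 to 0.11 for Peak_10125 and -0.19 to -0.069 for Peak_14200. The cause was not tested. At 6 of the 19 intervals the 95% confidence bounds reached past a 1.5-fold change, which depth and 3 libraries a group do not exclude there.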
